A study of Mus musculus with 2 samples.

Results

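Peak-poor windows were the stretches of the mouse autosomes where almost no enrichment peak was called. The chromosomes were divided into fixed windows of 1 Mb, starting at 3 Mb, and a window was a member when the peak lists of both libraries together placed 5 or fewer peak midpoints in it. Of 2405 autosomal windows, 455 (18.9%) were members, and the other 1950 served for comparison. The peak counts chose the members, so those counts are a description and were not tested.

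The libraries came from E14 cells, a pluripotent mouse embryonic stem cell line. The shDnmt3L library came from cells transfected with a short hairpin RNA against Dnmt3L, and the shGFP library, its control, from cells transfected with a hairpin against GFP. With 1 library per group there was no replicate error to set a difference against, and no p-value was computed. The labels name the assay as MeDIP and the design text speaks of 5-methylcytosine, whereas the protocol describes enrichment with the Hydroxymethyl Collector kit, a glucosylation-based capture of 5-hydroxymethylcytosine. The mark is left unnamed for this reason, and its peaks are called enrichment peaks.

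As background, 5-methylcytosine in mammals is placed mainly on CpG dinucleotides by DNA methyltransferases, and Dnmt3L has no catalytic activity of its own but binds the de novo enzymes Dnmt3a and Dnmt3b and stimulates them. Tet enzymes oxidise it to 5-hydroxymethylcytosine, which in embryonic stem cells lies mostly in gene-rich parts of the genome. Antibody capture recovers more DNA where marked cytosines are dense.

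The shDnmt3L list held 45579 peaks and the shGFP list 55292, and the numbers in the peak names ran without a gap in both. The members were 18.9% of the windows but held 0.959% of the shDnmt3L peaks (437 peaks) and 1.25% of the shGFP peaks (690 peaks). A member window held a median of 2 midpoints, against 39 in the other windows, which reached 284. Shares and ratios below carry 95% intervals for counting error only, which treat neighbouring peaks as independent. Read depth, on which the calling of weak peaks depends, is unknown.

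The members filled the whole range of permitted counts. There were 87 windows with no midpoint, 54 with 1, 87 with 2, 79 with 3, 78 with 4 and 70 with 5. Just outside the threshold, 57 windows held 6 midpoints and 73 held 7, so there was no break at the threshold. The 70 windows at 5 held 135 shDnmt3L and 215 shGFP peaks, and the 57 at 6 held 144 and 198. On the X chromosome, which was not used to choose members, 144 of 163 windows (88.3%) had 5 or fewer midpoints. Had the lists held peaks of score 100 or more only, 897 windows would have been members.

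Most of the members were empty in both libraries or occupied in both. Peaks of both lists were found in 293 members (64.4%), of the shDnmt3L list only in 9, of the shGFP list only in 66, and of neither list in 87. Thus 153 members lacked a shDnmt3L peak and 96 lacked a shGFP peak. More shDnmt3L than shGFP midpoints lay in 42 members (9.23%), against 7.28% of all windows. More shGFP than shDnmt3L midpoints lay in 212 members (46.6%), against 77.8% of all windows, but the 87 empty members can favour neither list. Equal numbers above 0, which are common where counts are this small, lay in 114 members (25.1%), against 11.3% of all windows. A peak centred in another window reached into 2 of the 87 empty windows, and the other 85 were free of any called base. Peaks covered 0.199% of the members in shDnmt3L and 0.244% in shGFP, whereas in the other windows they covered 6.30% and 5.97%.

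All 19 autosomes held members, but unevenly. Chromosome 14 had the highest share, with 41 of 122 windows (33.6%, Wilson interval 25.8 to 42.4%). It was followed by chromosome 7 with 38 of 149 (25.5%, 19.2 to 33.1%) and chromosome 12 with 30 of 118 (25.4%, 18.4 to 34.0%). Chromosome 1 had the largest number, 45 of 194 windows (23.2%). The lowest share was on chromosome 11, with 9 of 118 windows (7.63%, 4.06 to 13.9%), followed by chromosome 19 with 5 of 58 (8.62%) and chromosome 9 with 11 of 120 (9.17%). Chromosome 8, with the highest median of all chromosomes at 58.5 midpoints per window, still held 13 members in 128 windows. Those 13 windows held 19 shDnmt3L peaks and 21 shGFP peaks, with 13 shared in each list.

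**Figure D1:**
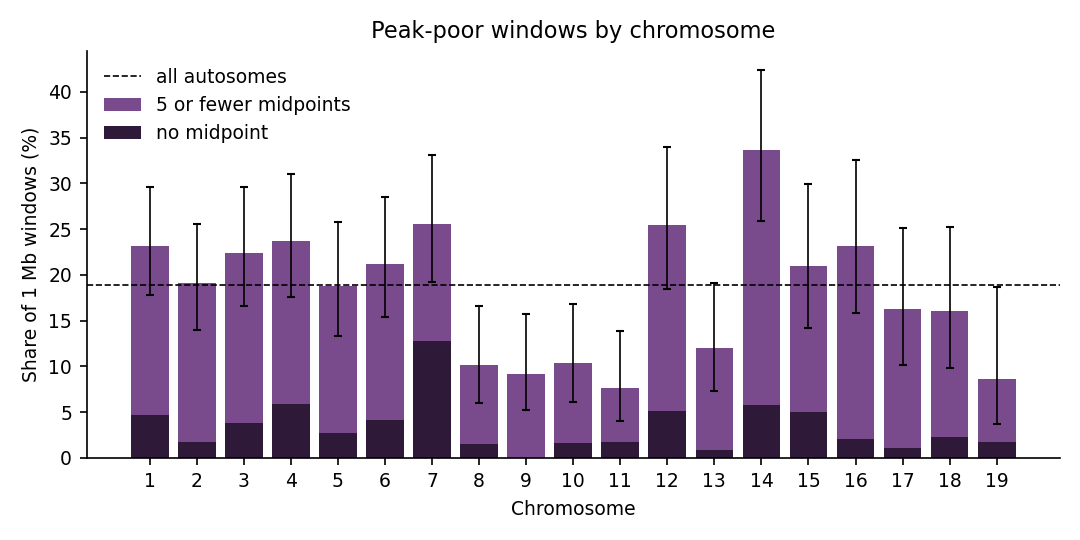
Share of 1 Mb windows (vertical axis, percent) that were peak-poor on each autosome (horizontal axis). Whole bars give windows with 5 or fewer midpoints with Wilson 95% intervals, dark parts the windows with none, and the dashed line the 18.9% over all autosomes. Chromosome 14 stands highest at 33.6%, and chromosome 7 has the largest dark part, 19 windows.

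Windows with no midpoint were concentrated on chromosome 7, which held 19 of the 87. Chromosomes 1 and 4 followed with 9 each, and chromosome 9 had none. Along the chromosomes, the share of members varied. When the windows of each chromosome were divided into 10 equal parts, members made up 17.4% of the first part, 26.1% of the third and 24.2% of the eighth. In the ninth part they made up 9.05% (Wilson interval 6.05 to 13.3%) and in the tenth 7.83% (5.01 to 12.03%). At the centromere-proximal end, 15 of the 95 windows within the first 5 of each chromosome were members. Of the 19 windows from 3 to 4 Mb, 1 was a member, on chromosome 14. At the other end, 14 of the 95 windows within the last 5 were members (14.7%, 8.99 to 23.2%), as were 4 of the 19 last windows (21.1%, 8.51 to 43.3%).

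Members lay side by side more often than alone. They formed 222 runs, of which 108 were single windows and 62 were pairs. The other 52 runs, of 3 windows or more, held 223 windows, or 49.0% of the members. A neighbouring member was present for 347 of 455 members (76.3%), against 405 of 1950 other windows (20.8%). The 405 windows directly bordering a run were themselves thin, with a median of 15 midpoints (quartiles 9 and 26), against 48 in the 1545 windows that were neither members nor next to one. More than 40 midpoints were held by 53 of the 405 (13.1%), against 57.7% of the 1545. Some borders were abrupt. On chromosome 7, the members from 32000001 to 34000000, with 1 peak in each library, adjoined a window of 139 midpoints.

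**Figure D2:**
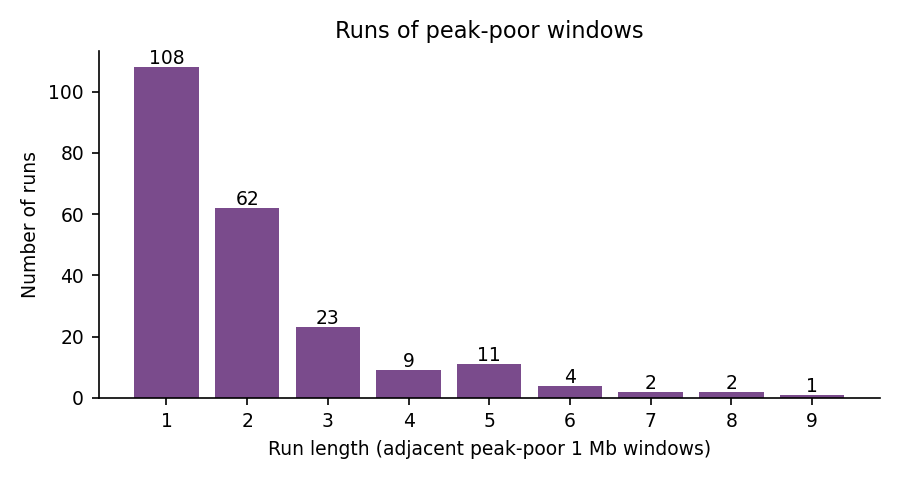
Number of runs (vertical axis) by the number of adjacent peak-poor 1 Mb windows in the run (horizontal axis). Single windows make 108 of the 222 runs, and the longest run has 9 windows.

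The 20 runs of 5 windows or more lay on 10 chromosomes and held 118 windows. The longest covered chromosome 4 from 72000001 to 81000000 (9 windows). It held 10 shDnmt3L peaks, 8 of them shared, and 15 shGFP peaks, also with 8 shared. Widths in this run were 927 to 2705 bp in shDnmt3L and 903 to 1924 bp in shGFP, and no score was above 125.9 in shDnmt3L or 134.7 in shGFP. Its windows held between 0 and 5 midpoints, and the windows at its borders held 6 and 8.

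Runs of 8 windows lay on chromosome 5 from 55000001 to 63000000 and on chromosome 15 from 17000001 to 25000000. The first had no empty window, with 8 shDnmt3L and 10 shGFP peaks, 5 shared in each. The second held 9 shDnmt3L and 12 shGFP peaks, 7 shared in each, and its right border held 68 midpoints. Runs of 7 windows lay on chromosome 3 from 42000001 to 49000000 and on chromosome 7 from 39000001 to 46000000. The chromosome 3 run held 8 shDnmt3L and 15 shGFP peaks, 6 shared in each. The remaining named runs were shorter. Those of 6 windows were on chromosome 2 (from 95000001), chromosome 6 (from 74000001) and chromosome 14 (from 81000001 and from 92000001). The first run of 5 windows, on chromosome 1 from 25000001 to 30000000, held 3 shDnmt3L and 5 shGFP peaks. With only peaks of score 100 or more, the longest run had 17 windows.

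The chromosome 7 run differed from the other long runs in being almost bare. Of its 7 windows 6 were empty, and the first held a single peak in each library, 1421 bp wide in both, with a score of 81.6 in shDnmt3L and 121.8 in shGFP. The window on its left held 91 midpoints. Its empty part belonged to the longest stretch with no peak in either list, 7.36 Mb from 39165205 to 46527779. The next 3 peak-free stretches were on the same chromosome. They measured 4.01 Mb from 7254112 to 11263265, 3.53 Mb from 20561682 to 24096138 and 3.45 Mb from 58882020 to 62332948. The fifth, of 3.01 Mb, lay on chromosome 4 from 66573340 to 69585709. In all, 148 stretches of 1 Mb or more had no peak in either list, and 25 of these were at least 2 Mb long. Whether sequencing reads can be placed in the peak-free stretches, or whether these hold assembly gaps, was not tested.

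No gene was placed in a window, because the RefSeq gene table used here is on GRCm38 and the peaks are on mm9. That table could be read by chromosome and by gene order only. Chromosome 7, on which 4 of the 5 longest peak-free stretches lay, carried 126 of the 230 autosomal Vmn1r genes (54.8%) and 52 of the 122 Vmn2r genes (42.6%). Both families encode pheromone receptors of the vomeronasal organ. It also carried 239 of 1104 Olfr genes, which encode odorant receptors, 93 of 388 genes with a Zfp symbol, which encode zinc finger proteins, and 19 of 20 Mrgpr genes, receptors best known from sensory neurons. The other family counted, Skint, had all of its 11 genes on chromosome 4. Chromosome 7 held 2030 coding genes in all, more than any other autosome. Up to 15 Vmn1r, 16 Vmn2r and 42 Olfr genes followed each other there without another coding gene between them. Whether these arrays lie in the empty windows was not tested.

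Receptor gene number and the share of members did not go together on every chromosome. Chromosome 2 carried 287 Olfr genes, up to 123 in an unbroken row, and 19.1% of its windows were members, near the 18.9% of all autosomes. Chromosome 12 carried no Olfr, Vmn1r or Vmn2r gene, and 25.4% of its windows were members. Over the 19 chromosomes, the share of members had a Pearson r of 0.06 (Spearman rho -0.17) with the summed number of these receptor genes. With coding genes per window, r was -0.38 (rho -0.42). Receptor genes were counted per chromosome and coding genes per window, so the 2 coefficients do not rest on like measures. These coefficients describe 19 chromosomes that differ in length and base composition. Chromosome 14, highest in members, had 6.98 coding genes per window and chromosome 11, the lowest, had 13.6. Chromosome 7 also had 13.6, with the second highest share of members.

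The few peaks in the members were weaker and narrower than peaks elsewhere in both libraries. The median width was 1919 bp (interval of the median 1850 to 2009) in the members and 2380 bp in the other windows for shDnmt3L, and 1515 bp (1480 to 1554) in the members and 2005 bp in the other windows for shGFP. Each library had the lower median width in the members on all 19 autosomes. The median score, the authors' peak caller's value, was 77.3 (72.8 to 81.8) in the members and 99.4 in the other windows for shDnmt3L. For shGFP it was 72.8 (69.6 to 76.7) in the members and 96.7 in the other windows. These medians were compared within their own list only. The median score was lower in the members on 18 of 19 autosomes in shDnmt3L, with chromosome 3 the exception, and on 19 of 19 in shGFP.

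Member peaks were also narrower than peaks of like score elsewhere. Among peaks scoring 100 to 200, the median width was 2144 bp in the members and 2535 bp in the other windows for shDnmt3L. For shGFP it was 1556 bp in the members and 2142 bp in the other windows. Peaks under 1 kb were rare but more frequent in the members. They made up 12 of 437 shDnmt3L peaks there (2.75%, Wilson interval 1.58 to 4.74%), against 0.210% in the other windows. In shGFP they made up 57 of 690 (8.26%, 6.43 to 10.6%) in the members, against 1.27% in the other windows. At 4 kb or more there were 11 shDnmt3L peaks in the members (2.52%), against 11.1% of the peaks in the other windows, and 6 shGFP peaks (0.870%), against 3.82%.

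Peak numbers differed more between the libraries in the members than elsewhere. The ratio of shDnmt3L to shGFP peaks was 0.633 in the members (437 over 690, exact interval 0.561 to 0.715) and 0.827 in the other windows (0.817 to 0.837). It was lower in the members on 17 of 19 autosomes. The rule, which touches the ratio as described below, acts alike on each chromosome, so that count is no separate support. Covered length followed, with 0.904 Mb in shDnmt3L and 1.11 Mb in shGFP, a ratio of 0.813, whereas in the other windows the ratio was 1.06. In the same windows, the ratio of peaks with a score of 100 or more was 0.753 (143 over 190, 0.602 to 0.940) in the members and 0.852 in the other windows. This sets the same minimum on both lists, although equal scores in the 2 lists may reflect different enrichment. With lists of equal length the windows were chosen anew, and the ratio was 0.935 in the resulting 508 members (559 over 598 peaks) and 1.00 in the other windows. Equal lengths bring the ratio over all windows close to 1 by construction. The rule touches the ratio, because a peak found in both lists enters the sum as a pair and other peaks enter alone. When windows were chosen by 3 or fewer regions after joining both lists, the ratio was 0.690 in them and 0.826 elsewhere. That alternative was added after the data were seen.

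Across classes of windows by midpoint number, the ratio and the widths changed step by step, and the pooled members were at the low end. Inside the members the ratio had no such order. It was 0.174 at 1 midpoint, 0.689 at 2, 0.743 at 3, 0.642 at 4 and 0.628 at 5. The classes are ordered by the same sum that chose the members. In windows with 6 to 10 midpoints the ratio of peak numbers was 0.718, in those with 21 to 40 it was 0.780, and over 120 midpoints it was 0.864. Median widths in shDnmt3L were 2074.5, 2271 and 2505 bp in the same 3 classes of windows, and in shGFP they were 1632, 1848 and 2177 bp. At every density the shDnmt3L peaks were the wider ones.

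**Figure D3:**
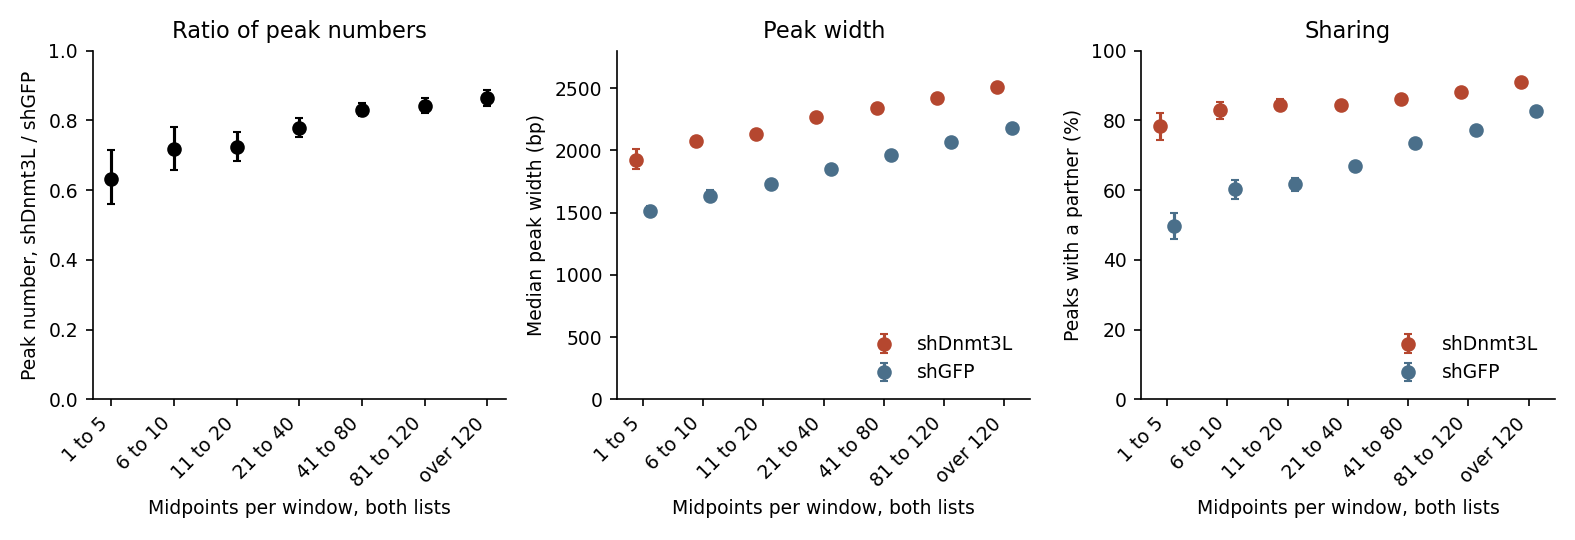
Ratio of peak numbers with exact 95% intervals (left), median width in bp with order-statistic intervals (middle) and share of peaks with a partner in percent with Wilson intervals (right), against the number of midpoints per 1 Mb window in both lists together. The members with a peak, pooled over 1 to 5 midpoints, are the leftmost class. Each measure is lowest there, with a ratio of 0.633 and shared shares of 78.5% in shDnmt3L and 49.9% in shGFP. The rule that sums both lists touches the ratio and the shared shares.

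Sharing was less frequent in the members, above all in the control list. Sharing meant an overlap of 1 bp or more between peaks of the 2 lists. In shDnmt3L, 94 of the 437 member peaks were not shared (21.5%), against 12.6% of the whole list. In shGFP, 346 of 690 were not shared (50.1%), against 25.5% of the whole list. The shared share of shDnmt3L peaks was 78.5% (Wilson interval 74.4 to 82.1%) in the members and 87.5% in the other windows. For shGFP peaks it was 49.9% (46.1 to 53.6%) in the members and 74.8% in the other windows. It was lower in the members on 15 of 19 autosomes in shDnmt3L and on 19 of 19 in shGFP. Some chromosomes held few member peaks, such as chromosome 19 with 5 in shDnmt3L and 10 in shGFP. The rule acts alike on each chromosome, so these counts are no separate support.

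The rule touches this measure, because a shared peak enters the sum of both lists as a pair and an unshared peak enters alone. None of the 8 shDnmt3L and 46 shGFP peaks in windows with a single midpoint was shared. In windows with 2 midpoints, 90.1% of 71 shDnmt3L and 62.1% of 103 shGFP peaks were shared. With 3 midpoints these shares were 69.3% of 101 and 51.5% of 136. When windows were instead chosen by 3 or fewer regions after joining both lists, an alternative added after the data were seen, 84.1% of shDnmt3L peaks and 58.2% of shGFP peaks in them were shared. The members minus the other windows was then -3.32 percentage points in shDnmt3L, against -9.04 under the rule, and -16.5 points in shGFP, against -24.98.

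Within classes of score, the gap in shGFP was of similar size up to a score of 100. It was smaller above, where shares neared 100% and left little room for a gap. Below 60, 12.2% of 205 member peaks were shared, against 28.4% in the other windows. From 60 to 80, 38.7% of 194 were shared, against 54.4%, and from 80 to 100, 67.3% of 101, against 82.1%. From 100 to 200, 91.3% of 138 were shared, against 96.5%. At 200 or more, 50 of 52 member peaks were shared (96.2%, Wilson interval 87.0 to 98.9%), against 10161 of 10163 (99.98%) in the other windows. Weighting the other windows to the score classes of the members gave 62.6%, between the 49.9% of the members and the 74.8% of the other windows. In shDnmt3L the same weighting gave 85.6%, and the shares in the members varied from 70.0 to 84.7% without an order by score.

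**Figure D4:**
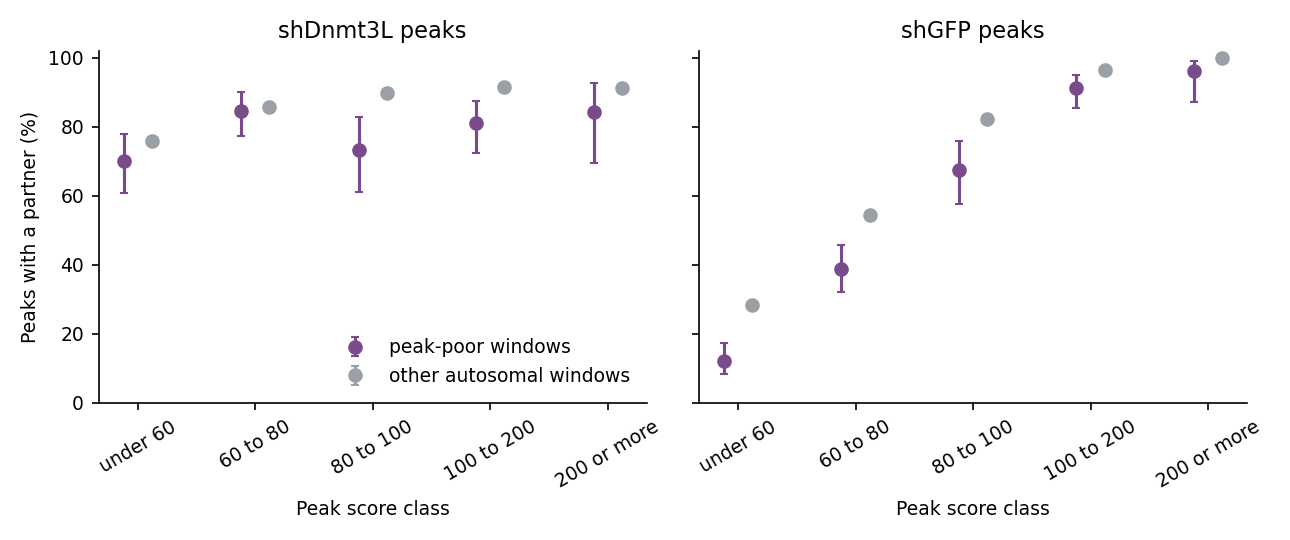
Share of peaks with a partner in the other list (vertical axis, percent, Wilson 95% intervals) by class of peak score (horizontal axis), for shDnmt3L peaks (left panel) and shGFP peaks (right panel), with peak-poor windows to the left of other autosomal windows in each class. In shGFP the members lie below the other windows in every class, at 12.2% against 28.4% below a score of 60.

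Unshared peaks differed between the libraries in width. In the members, unshared shDnmt3L peaks had a median width of 2448 bp (2162 to 2652), against 1847 bp (1758 to 1918) for shared ones. In shGFP the order was the opposite, with 1425 bp (1371 to 1456) for unshared and 1631.5 bp (1585 to 1742) for shared peaks. The orders were the same in the other windows. There unshared shDnmt3L peaks had a median of 2475 bp and shared ones 2371 bp. In shGFP the medians there were 1613 bp for unshared and 2115 bp for shared peaks. Unshared shDnmt3L peaks were thus nearly as wide in the members as elsewhere, while shared ones were narrower than the 2371 bp found elsewhere. Of the 11 shDnmt3L peaks of 4 kb or more in the members, 5 were unshared, against 1002 of 4961 in the other windows. Of the 6 such shGFP peaks none was unshared, against 23 of 2070 in the other windows. The median score of unshared member peaks was 73.7 in shDnmt3L and 59.6 in shGFP, close to the 74.9 and 60.6 of the other windows.

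Unshared member peaks were far from any peak of the other list. The nearest lay a median of 162 kb away for shDnmt3L peaks and 297 kb away for shGFP peaks, against 7.05 and 9.68 kb in the other windows. A peak of the other list lay within 500 bp of 0 of the 94 unshared shDnmt3L peaks and of 1 of the 346 unshared shGFP peaks. Distances this long follow from the low density that defines the members.

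Where both libraries had a peak, the shDnmt3L peak was usually the wider one. In 343 member pairs, in which each peak overlapped only the other, shDnmt3L was wider in 271 (79.0%, Wilson interval 74.4 to 83.0%), shGFP in 50, and 22 were equal. In the other windows shDnmt3L was wider in 81.7% of the pairs. The median difference, shDnmt3L minus shGFP, was 64 bp (60 to 94) in the members and 146 bp (143 to 150) in the other windows. The scores went the other way. In the member pairs the median score was 77.9 in shDnmt3L and 101.1 in shGFP. In the pairs of the other windows it was 100.6 in shDnmt3L and 122.0 in shGFP. Equal scores in both lists may reflect different enrichment, so the score order does not rank the libraries. Why the shDnmt3L peaks were wider was not tested.

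A handful of member peaks were among the strongest of their lists, and these lay in both libraries. On chromosome 2, the peak from 98501953 to 98508532 in shDnmt3L was 6580 bp wide and the peak from 98501977 to 98508357 in shGFP was 6381 bp wide, both with a score of 3100. That value was near the top of each list. Exactly 3100 was also the highest score in windows with 6 to 10 and with 11 to 20 midpoints, in both lists. A value that recurs so exactly need not mean equal enrichment in the 2 libraries. The stretch of chromosome 2 under these peaks is commonly listed among regions of unreliable, very high sequencing signal. Its part in the result was not tested. On chromosome 3, a peak from 43740855 to 43750399 scored 2882 in shDnmt3L, and its shGFP partner of 9318 bp scored 2256. The widest member peak lay on chromosome 15. It measured 10438 bp in shDnmt3L (19637370 to 19647807) and scored 2338. Its shGFP partner was 10377 bp wide and scored 1435, and these were the only member peaks of 10 kb or more.

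Lower in the ranking, a 6239 bp shDnmt3L peak on chromosome 2 (89224875 to 89231113) scored 1081. Its shGFP partner was 5915 bp wide and scored 582. Another peak of that chromosome (7715656 to 7718193) was 2538 bp wide and scored 987 in shDnmt3L. Its shGFP partner, of 2506 bp, scored 1192. The fifth shGFP peak by score was on chromosome 7 (14999814 to 15002109) and scored 740.5, and its shDnmt3L partner scored 672. All of these had at least 94.8% of their length under the peak of the other library. The fifth widest shGFP peak, of 4945 bp on chromosome 12 from 116851433 to 116856377, scored 197 and also had a shDnmt3L partner. These named peaks were picked by rank and do not stand for the other pairs. Over the 343 member pairs, the median score was 77.9 in shDnmt3L and 101.1 in shGFP.

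The strongest unshared member peaks were wide in shDnmt3L and very narrow in shGFP. The shDnmt3L peak of highest score without a partner scored 424 and spanned 5826 bp of chromosome 14, from 84842446 to 84848271. Chromosome 3 held 3 of the others. The first spanned 6894 bp (45179596 to 45186489) and scored 352, the next spanned 7001 bp (106901328 to 106908328) and scored 349, and the last spanned 5042 bp (158221440 to 158226481), scored 206 and was the single peak of its window. On chromosome 5, a 4627 bp peak (58105171 to 58109797) scored 244. In shGFP the 5 strongest without a partner were between 542 and 733 bp wide. Those starting at 50317372 on chromosome 1 and 6042853 on chromosome 14 both scored 279. Those starting at 15635477 on chromosome 11, 4398375 on chromosome 14 and 123787090 on chromosome 6 scored 161, 145.5 and 138. All 5 of these shGFP peaks were thus under 1 kb, a width class that held 8.26% of the shGFP member peaks.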

How the data were processed

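Genomic DNA of 2 libraries was analysed, 1 per group. The authors deposited 1 peak list per library, with a position and a score per peak. The score is the authors' peak caller's value, and its lowest values were 50 in shDnmt3L and 50.01 in shGFP. Per the submitters' processing notes, the build was mm9 and the tools named, without roles, were MACS 1.4.1, Bowtie 0.12.7 and CASAVA 1.8. Depth, duplicate handling and any input control were not given in the sources used here.

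Windows ran from 3 Mb to the last complete window before the last peak end of either list, so peak-free chromosome ends are not counted. Coordinates are 1-based. Counts and overlaps were computed in Python 3.11.15 with pandas 2.3.3, numpy 2.4.6 and scipy 1.17.1. The window and overlap code was tested on simulated data. Shares carry Wilson, ratios exact binomial and medians order-statistic 95% intervals. The peaks named were the 5 of highest score, the 5 widest and the 5 strongest unshared per library, and the runs named were the 10 longest with the 5 longest peak-free stretches. The members and lists were chosen with earlier results of these data known. Gene positions and sequences were not used here, for want of a genome of the build.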

Additional observations from a re-analysis of the deposited data

How the results depend on the processing

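Among 119 alternative values, 92 were close to the value reported and 27 were not. Numbers of windows and run lengths, with 12 alternatives each, had no direction that could change. No difference in width, score or shared share changed sign, and the ratio stayed below that of the other windows throughout. Close meant within the counting interval, or a factor of 1.5 for numbers of windows and run lengths. Differences are members minus other windows. When peaks under a score of 100 were dropped before choosing windows, there were 897 members, a longest run of 17 windows, and score differences of -27.0 (shDnmt3L) and -29.6 (shGFP). With 500 kb windows and a limit of 2 midpoints there were 1057 members. That number counts smaller windows and cannot be set directly against 455. In the same windows with peaks of score 100 or more, the ratio of peak numbers was 0.753, the difference in shared share -5.21 points in shGFP, and the width differences -543 bp (shDnmt3L) and -682.5 bp (shGFP). With lists of equal length the ratio was 0.935, the shGFP shared difference -18.5 points and its width difference -529 bp. Windows chosen on the shDnmt3L list alone gave a ratio of 0.549 and a shGFP shared difference of -30.0 points, and on the shGFP list alone 0.763, -16.9 points and a shGFP score difference of -18.3. With 8 or fewer midpoints the width differences were -366 bp (shDnmt3L) and -446.5 bp (shGFP), the shGFP score difference -19.4 and its shared difference -19.9 points. With 3 or fewer the width differences were -555.5 bp (shDnmt3L) and -538 bp (shGFP). An overlap of 50% of both peaks gave a shGFP shared difference of -19.4 points. Joined regions, added after the data were seen, gave shared differences of -3.32 (shDnmt3L) and -16.5 points (shGFP) and a shGFP score difference of -18.25. Choosing windows on 1 list, or cutting the longer list to equal length, moves the ratio by construction. Dropping peaks before choosing windows cannot lower the number of members, and a stricter overlap cannot raise a shared share. The cause of the other shifts was not tested. No paired analysis was possible because there is a single library per group. Unknown read depth limits which weak peaks could be called in either library.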
